A study of Mus musculus with 11 samples.

Results

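The E protein genes Tcf3, Tcf4 and Tcf12 and the Id genes Id1, Id2 and Id3 were followed through H3K27ac, the acetylation of histone H3 at lysine 27 that marks active promoters and enhancers, in a mouse pre-T cell line. Every region whose gene symbol was one of these 6 genes was taken, which gave 141 of the 56342 regions in the authors' deposited table. Tcf12 held 102 of the 141 regions, Tcf4 11, Tcf3 10, Id1 8, and Id2 and Id3 5 each. All 141 lay on the chromosome of the named gene, and no region of another symbol lay within the span of any of the 6 genes' regions.

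The cells were Beko cells, 1 mouse pre-T cell line, treated for 24 h with DMSO as the control, apicidin (labelled 0.01 mg/ml) or DAPT (labelled 10 mg/ml). Apicidin inhibits histone deacetylases and is labelled an HDAC3 inhibitor. DAPT inhibits gamma-secretase (GSI below), the protease whose cut releases active Notch. Of 11 chromatin immunoprecipitation libraries, 2 per treatment measured H3K27ac, 2 measured the Notch-pathway DNA-binding protein RBPJ in DMSO cells, and 3 were inputs, 1 per treatment. The labels do not say that the paired libraries were separate cultures, so p-values reflect the spread between these libraries alone, which may be technical. Values of single libraries were not analysed here, and the depth of the libraries is unknown. Each change is therefore given as the authors' log2 fold change ± its standard error (SE), and levels as the authors' base mean, a normalised read count averaged over libraries. A region was called where the authors' DESeq2 adjusted p was under 0.05. For GSI an adjusted p was given only at base means of 72.1 and above, which left 47 of the 141 regions tested.

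E proteins are basic helix-loop-helix factors that pair with each other and bind the E-box. E2A (Tcf3) and HEB (Tcf12) are needed for T cell receptor gene rearrangement and for the pre-T cell receptor stage, while E2-2 (Tcf4) is best known in plasmacytoid dendritic cells. Id proteins share the helix-loop-helix but lack the basic region, so an E protein held by an Id protein does not bind DNA. Id3 is induced by pre-T cell and T cell receptor signals, Id2 is known in innate lymphoid and natural killer cells, and Id1 is a classical target of bone morphogenetic protein signals.

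RefSeq (GRCm38) held promoter sequences for 4 of the 6 genes, 6 promoters in all. Those of Id2, Id3 and Tcf12 are shown because the largest increases with apicidin lay at Id2 and Id3, and because Tcf12 has an upstream and an internal start site that differed in their calls. Each is the 250 bases before the start site, 5′ to 3′ on the strand of the gene, with every match to the E-box CANNTG in capitals. The Id2 stretch is chr12:25096093-25096342 on the minus strand and the Id3 stretch chr4:136143572-136143821 on the plus strand. The Tcf12 stretches are chr9:72111820-72112069 for the outermost of 2 upstream starts and chr9:71896097-71896346 for the internal start, both on the minus strand.
Id2: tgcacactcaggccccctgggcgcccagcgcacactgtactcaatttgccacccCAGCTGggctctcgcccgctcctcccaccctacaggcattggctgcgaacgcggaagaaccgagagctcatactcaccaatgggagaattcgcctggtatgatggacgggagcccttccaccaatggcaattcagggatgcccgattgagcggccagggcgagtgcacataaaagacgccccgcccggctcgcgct
Id3: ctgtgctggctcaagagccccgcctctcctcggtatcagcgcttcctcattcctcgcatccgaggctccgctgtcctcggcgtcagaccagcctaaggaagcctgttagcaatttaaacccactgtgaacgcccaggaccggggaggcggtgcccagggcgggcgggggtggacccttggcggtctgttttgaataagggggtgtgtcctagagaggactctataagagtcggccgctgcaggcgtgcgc
Tcf12 upstream: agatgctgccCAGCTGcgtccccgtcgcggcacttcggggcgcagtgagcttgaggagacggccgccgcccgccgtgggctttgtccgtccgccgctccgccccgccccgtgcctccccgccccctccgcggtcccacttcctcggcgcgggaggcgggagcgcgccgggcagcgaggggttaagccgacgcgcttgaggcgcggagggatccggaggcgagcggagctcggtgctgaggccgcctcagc
Tcf12 internal: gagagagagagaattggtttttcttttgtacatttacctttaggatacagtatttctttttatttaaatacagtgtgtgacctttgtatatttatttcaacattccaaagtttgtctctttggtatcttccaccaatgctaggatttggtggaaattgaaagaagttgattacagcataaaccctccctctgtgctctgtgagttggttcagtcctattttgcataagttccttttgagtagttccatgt
The palindromic E-box CAGCTG stood 196 bases before the Id2 start and 240 before the outermost Tcf12 start, and Id3 and the internal Tcf12 start held no CANNTG in this window. CANNTG, which reads the same on both strands at this level of detail, was in 66.2% of 32851 RefSeq promoters of this length, and CAGCTG in 13.0%, so a match is common. The RBPJ-type word TGGGAA, searched also as TTCCCA, was in none of the 6 promoters and in 21.6% of all. The upstream Tcf12 stretch was 76.8% G and C with 38 CpG pairs, whereas the internal one was 34.8% with 0 CpG pairs. Matches are descriptions of letters only, and the regions below are given on mm9, a different build, so the sequences were not placed inside them.

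Acetylation at the start sites differed between the genes in level. Per kb of region, the base mean in the authors' deposited table was 373 at the upstream Tcf12 starts, 370 at Tcf4, 357 at Tcf3, 307 at Id2, 255 at the internal Tcf12 start, 177 at Id3 and 141 at Id1. A base mean carries no spread, so neighbours in the order could not be told apart. It also averages treated and control libraries, and since the Id3 start rose and the Id1 start fell with treatment, their order under DMSO alone may differ from this one. The domain over the upstream Tcf12 starts (chr9:71938218-71960737) was 22520 bases wide, the 29th widest of all regions, with a base mean of 8394, the 32nd highest. Across the 141 regions the base mean ran from 9.0 to 8394 with a median of 39.5, against 61.3 for the whole table. Most of these regions were therefore weak ones, where the SE was large.

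Apicidin raised H3K27ac at 11 of the 141 regions and lowered it at 8, by the authors' adjusted p. The increases were at Tcf12 (6 regions), Tcf4 (2), Id3 (2) and Id2 (1), and the decreases at Tcf12 (3), Tcf4 (3), Tcf3 (1) and Id1 (1). The shares of 7.80% higher and 5.67% lower stand beside 9.69 percent higher and 14.1 percent lower over all 56342 regions, so the 141 regions together were called no more often than the table as a whole. These shares are not matched for base mean, whose median was 39.5 here and 61.3 in the whole table. Tcf12 weighs on these shares with 102 regions. Without it, 12.8% of the remaining 39 regions rose and 12.8% fell. With GSI, 0 of the 47 tested regions rose and 3 fell (6.38%), 1 each at Id1, Tcf3 and Tcf12. Over all 25756 regions tested with GSI, 6.62 percent rose and 7.17 percent fell. At an unadjusted DESeq2 p under 0.05, 12 of the 141 regions (8.51%) passed with GSI, 2 of them higher, beside 14.8 percent of all regions, 4140 of 8330 higher. The median log2 fold change of the 141 regions was 0.10 with apicidin and -0.06 with GSI in the authors' deposited table, against 0.0040 and 0.0022 over all regions.

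Of the 7 regions that covered a start site, 1 rose and 4 fell with apicidin, whereas away from start sites 10 rose and 4 fell. In the table as a whole, 39.4% of start-covering regions fell and 8.01% rose, against 10.0% and 9.97% of the others, so start-site regions leaned toward decreases there too. Away from start sites the table had no such lean in either direction, and the 10 and 4 were 7.46% and 2.99% of these genes' 134 regions. The difference by position was not tested. Apicidin's fold changes also shifted with base mean over the whole table, with a median of -0.10 among the stronger regions. With fold changes centred on that median the split at these genes was 15 higher and 6 lower, and with the median at each base mean subtracted it was 13 and 5. Whole-table shares after the same steps are not given here, so these splits cannot be read as a lean of these genes. Start-site decreases that did not survive these 2 steps are named beside their values. The 2 treatments share their DMSO libraries, and their values are set side by side for that reason. Their difference, tested as the difference of the 2 fold changes over the root of the summed squared SEs, was called at 8 of the 141 regions (5.67%), 5 with the higher value under apicidin and 3 with the lower, beside 8.61 percent of all regions in either direction. All 3 of the lower differences lost the call after centring.

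**Figure D1:**
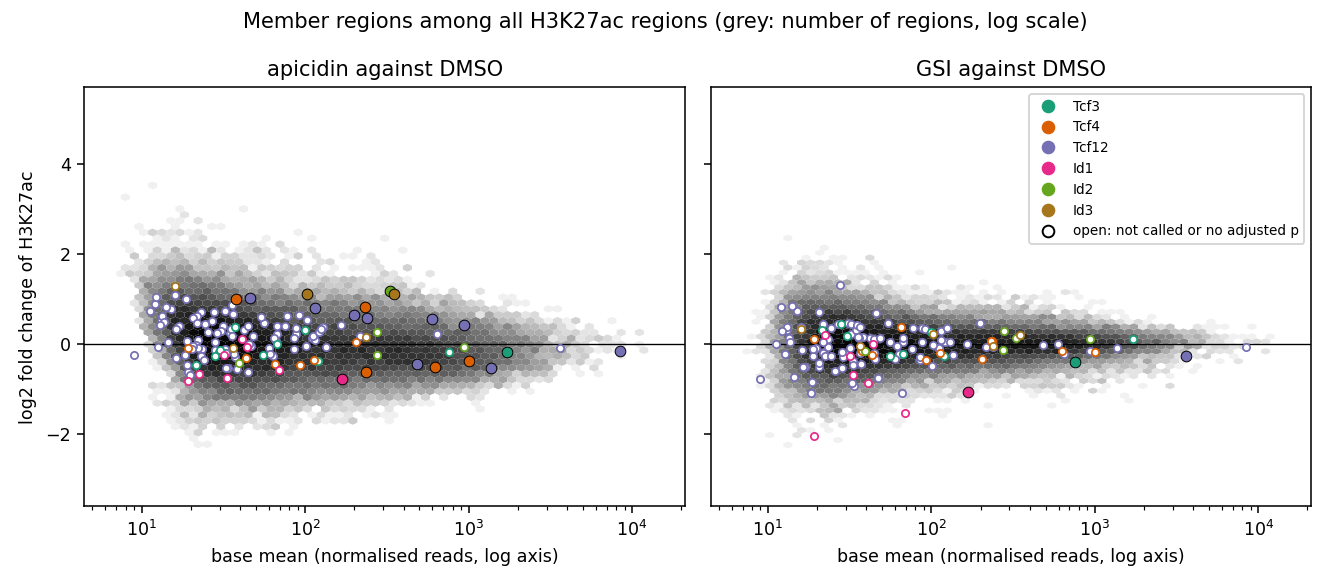
Log2 fold change against base mean (normalised reads, log axis) for all 56342 regions, grey by number of regions on a log scale, with the 141 E protein and Id regions as points coloured by gene, filled where the adjusted p was under 0.05. The Id2 and Id3 increases stand near 1.1 to 1.2 with apicidin at base means of 329 and 350, and the filled Id1 point lies at -1.05 with GSI.

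Id3 showed higher H3K27ac with apicidin at its start site. The region (chr4:135699703-135701685, mm9) had a base mean of 350 in the authors' deposited table. There the authors' deposited table gave a log2 fold change of 1.11 ± 0.15 with apicidin, 2.16-fold, and 0.20 ± 0.16 with GSI. Only the first passed the test, with a DESeq2 adjusted p of 1.49e-11 against 0.509. The difference of 0.92 was itself called, with an adjusted p of 0.00113 and a 95% interval from 0.48 to 1.36. A separate region 42.9 kb upstream (chr4:135655761-135656839, base mean 102) rose by a like amount in the authors' deposited table, 1.11 ± 0.26 with a DESeq2 adjusted p of 0.000157. GSI gave 0.22 ± 0.28 there in the authors' deposited table (adjusted p 0.7), and the difference of 0.90 between treatments missed the threshold at 0.139. Not all of the locus moved. The region 3.65 kb downstream (chr4:135703385-135704587, base mean 237), the only one at Id3 that overlapped an RBPJ site, had 0.16 ± 0.16 with apicidin and -0.05 ± 0.17 with GSI in the authors' deposited table, with adjusted p-values of 0.564 and 0.905. A weak region between them (base mean 15.9) had the largest apicidin value of all 141 regions, 1.30 ± 0.59 in the authors' deposited table, and missed the threshold at 0.101.

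Id2 responded beside its start site and not over it. The start-site region (chr12:25778985-25782040, base mean 937), the strongest at any Id gene, had -0.06 ± 0.09 with apicidin and 0.12 ± 0.09 with GSI in the authors' deposited table, with adjusted p-values of 0.692 and 0.478. Beside it, the region starting 1.87 kb upstream (chr12:25782828-25785353, base mean 329) rose by 1.19 ± 0.14 with apicidin, 2.27-fold, the smallest adjusted p of all 141 regions at 6.52e-15 in the authors' deposited table. GSI gave 0.13 ± 0.15 at that region in the authors' deposited table (adjusted p 0.674), and the difference of 1.06 was called with an adjusted p of 2.74e-05 and an interval from 0.65 to 1.47. The 95% interval of the apicidin change ran from 0.91 to 1.47 upstream and from -0.23 to 0.11 over the start. The region 2.09 kb downstream had 0.26 ± 0.15 with apicidin and 0.28 ± 0.16 with GSI in the authors' deposited table, neither past the threshold. A pair of regions about 41 kb downstream were not called with either treatment.

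Id1 was the Id gene that lost acetylation, and it did so with both inhibitors. Its start-site region (chr2:152562010-152563196), whose first base is the start site, had a base mean of 167, an average that includes the treated libraries in which it was lower. It fell by 0.77 ± 0.20 on the log2 scale with apicidin in the authors' deposited table, to 0.588 of the DMSO level (DESeq2 adjusted p 0.00077). With GSI the same region fell by 1.05 ± 0.21 in the authors' deposited table, to 0.482 of the DMSO level (adjusted p 1.38e-05). The 2 values share the DMSO libraries, and their difference of 0.29 was not called, with an interval from -0.27 to 0.85. The neighbouring region 1.33 kb on (base mean 69.5) had a larger GSI value of -1.52 ± 0.31 in the authors' deposited table, with an unadjusted p of 1.17e-06. Its base mean lay just under the limit for an adjusted p, and it counted as untested; adjusted over all regions with no such limit its p was 7.20e-05. A weak region 12.3 kb from the start on the other side (base mean 19.2) had -2.04 ± 0.61 with GSI in the authors' deposited table, which passed without the limit at 0.0196. In all, 7 of the 8 Id1 regions had a negative value with each treatment, with medians of -0.62 for apicidin and -0.78 for GSI, though 1 region was called per treatment. None of the 8 Id1 regions overlapped an RBPJ site, beside 2.73% of all regions that did.

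**Figure D2:**
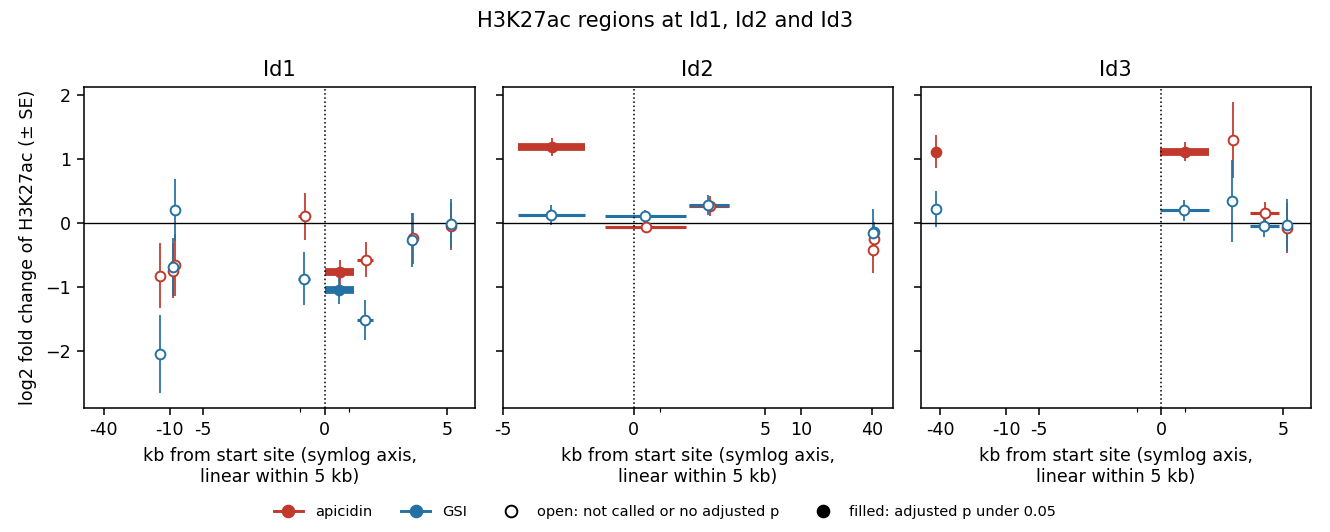
Log2 fold change ± SE of every H3K27ac region at Id1, Id2 and Id3 against its distance from the start site (kb, linear within 5 kb and logarithmic beyond). Negative distances are upstream for Id2 and Id3 and lower genome coordinates for Id1, horizontal bars give the region's extent, and filled points have an adjusted p under 0.05: the filled apicidin points at Id2 and Id3 lie at 1.11 to 1.19 and both filled Id1 points below 0.

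Of the 18 Id gene regions, 3 rose (16.7%) and 1 fell (5.56%) with apicidin, beside 9.69% and 14.1% of all regions, and 1 of the 8 tested (12.5%) fell with GSI, beside 7.17%. The 3 genes are short, 1160 bases for Id1, 2294 for Id2 and 1571 for Id3 by RefSeq, so regions beyond a few kb lay outside the transcribed gene.

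Among the E proteins, Tcf3, which encodes the E2A proteins E12 and E47, changed little at its start site. That region (chr10:79893163-79897949, base mean 1708) overlapped an RBPJ site and had -0.18 ± 0.07 with apicidin in the authors' deposited table, past the threshold with an adjusted p of 0.0468. After centring it had -0.09 with an adjusted p of 0.444, and with the trend over base mean subtracted -0.03 with 0.858, so the decrease depended on the zero of the fold change. GSI gave 0.12 ± 0.07 in the authors' deposited table (adjusted p 0.345), and the difference of -0.30 between treatments (adjusted p 0.044) was -0.20 after centring, with an adjusted p of 0.294. The GSI call at Tcf3 lay elsewhere, at a region 8.68 kb upstream (chr10:79905075-79908974, base mean 756), which fell by 0.39 ± 0.11 in the authors' deposited table with an adjusted p of 0.00368. Apicidin gave -0.18 ± 0.10 there in the authors' deposited table, which was not called, and the difference of 0.22 between treatments had an interval from -0.08 to 0.51. The other 8 Tcf3 regions, with base means of 21.4 to 120, were not called with either treatment.

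The called Tcf4 regions fell with apicidin near the start and moved in both directions far from it. The start-site region (chr18:69504154-69506867, base mean 1005) fell by 0.38 ± 0.10 in the authors' deposited table (DESeq2 adjusted p 0.000793), and kept the call after centring at 0.0207 but not with the trend subtracted, at 0.116. Next to it, the region ending 83 bases from the other annotated start (chr18:69503292-69504062, base mean 235) fell by 0.62 ± 0.17 in the authors' deposited table, with an adjusted p of 0.0016. Some 200 kb further on, the region chr18:69705810-69707771 (base mean 232) rose by 0.82 ± 0.18 in the authors' deposited table, 1.77-fold, with an adjusted p of 5.56e-05. The adjoining weak region (base mean 37.8) rose by 1.01 ± 0.38 in the authors' deposited table, with an adjusted p of 0.0375. At 246 kb, however, the strongest distal Tcf4 region (chr18:69751865-69754389, base mean 626) fell by 0.51 ± 0.11 in the authors' deposited table, with an adjusted p of 2.01e-05. RefSeq gives the gene 344539 bases, so these distances are within its length. None of the 7 Tcf4 regions tested with GSI was called by DESeq2, and none of the 11 had an unadjusted p under 0.05. The difference between treatments was called at the far increase (0.75, adjusted p 0.0472), which also held after centring at 0.0191, and at the region beside the start (-0.69, 0.0408), which did not, at 0.110.

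Tcf12, which encodes HEB, had the third highest number of regions of the 12081 symbols, spread over 339 kb. The deposited distances place them around 2 upstream starts and an internal start 215105 and 215723 bases further along, and RefSeq on GRCm38 gives the same spacing. RefSeq lists HEBAlt, the name of a shorter HEB form, as a synonym of Tcf12, but the table does not say which transcript the internal start makes. The domain over the upstream starts, which overlapped the only RBPJ site at Tcf12, had -0.15 ± 0.05 with apicidin in the authors' deposited table, a call at an adjusted p of 0.0108 that was lost after centring (-0.05, adjusted p 0.49). GSI gave -0.06 ± 0.05 there in the authors' deposited table, with an adjusted p of 0.497. The domain over the internal start (chr9:71731277-71745446, 14170 bases, base mean 3608) was called with GSI and not with apicidin. It fell by 0.26 ± 0.06 with GSI in the authors' deposited table (DESeq2 adjusted p 0.000679), while apicidin gave -0.09 ± 0.06 (adjusted p 0.313). The difference between treatments at the internal start, 0.17 with an interval from -0.0047 to 0.34, was not called at 0.31, but passed after centring as 0.26 with an adjusted p of 0.0346. Whether the change with GSI or with apicidin differed between the internal and the upstream starts was not tested.

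Between the Tcf12 starts lay 80 regions, none of them over a start site and all within the gene's RefSeq length of 267642 bases. With apicidin 5 of the 80 rose and 0 fell by DESeq2 adjusted p, and 55 had a positive value against 25 negative. The median log2 fold change of the 80 was 0.25 in the authors' deposited table, and 0.17 with the trend over base mean subtracted. The 46985 regions of the table that lay off start sites in the same range of base mean had a median of 0.06, with 9.36% higher and 9.26% lower. Of these 46985, 25523 had a positive value. The 80 regions are neighbours in 1 gene and not independent observations, and their lean was not tested. Among the 24 stronger regions between the starts, those at or above the table's median base mean, 21 were positive and 4 rose (16.7%), with a median of 0.34. Off-start regions of their base means numbered 18526, with a median of -0.03, 16.8% higher and 18.5% lower, so the share that rose was near that of comparable regions. Of these 18526, 8854 had a positive value. The 56 weaker ones had a median of 0.21, which became -0.03 with the trend subtracted. The same subtraction raised the median of the stronger regions to 0.42.

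The 5 increases between the starts, chosen here after their values were seen, were at 20.9, 28.0, 47.6, 78.8 and 95.2 kb into the gene. The strongest of them (chr9:71931117-71938094, base mean 931), bordering the upstream domain, rose by 0.43 ± 0.10 in the authors' deposited table, with an adjusted p of 0.000189. GSI gave -0.15 ± 0.10 there in the authors' deposited table, and the difference of 0.58 was called with an adjusted p of 0.00175. The other four rose by 0.58 ± 0.16 to 1.03 ± 0.36 in the authors' deposited table. Beyond the internal start, the region chr9:71719909-71724511 (base mean 599) rose by 0.56 ± 0.11 with apicidin (adjusted p 1.16e-05) and had -0.01 ± 0.12 with GSI in the authors' deposited table, a difference called at 0.0107. Of the 5 regions upstream of the gene, 2 fell with apicidin (40%) and 3 were not called, and 2 of the 5 had a positive value. Over all off-start regions 10.0% fell, and of those with base means of 63.4 to 931, 18.5%. The 5 upstream regions had base means of 18.7 to 1362, so neither share is matched to them. The region 20.3 kb upstream of the outermost start (chr9:71979914-71982976, base mean 1362) fell by 0.54 ± 0.09 in the authors' deposited table, with an adjusted p of 8.02e-08, and that 57.3 kb upstream (base mean 484) fell by 0.44 ± 0.12 with 0.00133. The nearer one differed between treatments by -0.44 (adjusted p 0.0107), which fell short of the threshold after centring at 0.0808. None of the 21 regions between the starts that were tested with GSI was called by DESeq2, and at an unadjusted p under 0.05 the count was 4 of all 80 (5.0%). Among off-start regions of the same base means, 13.4% of those tested were called and 12.9% had an unadjusted p under 0.05. The largest single values at Tcf12 were in weak regions, 1.09 ± 0.60 with apicidin at base mean 16 and 1.32 ± 0.48 with GSI at base mean 27.5 in the authors' deposited table. The first was not called, at an adjusted p of 0.189, and the second had an unadjusted p of 0.00576 and no adjusted p.

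**Figure D3:**
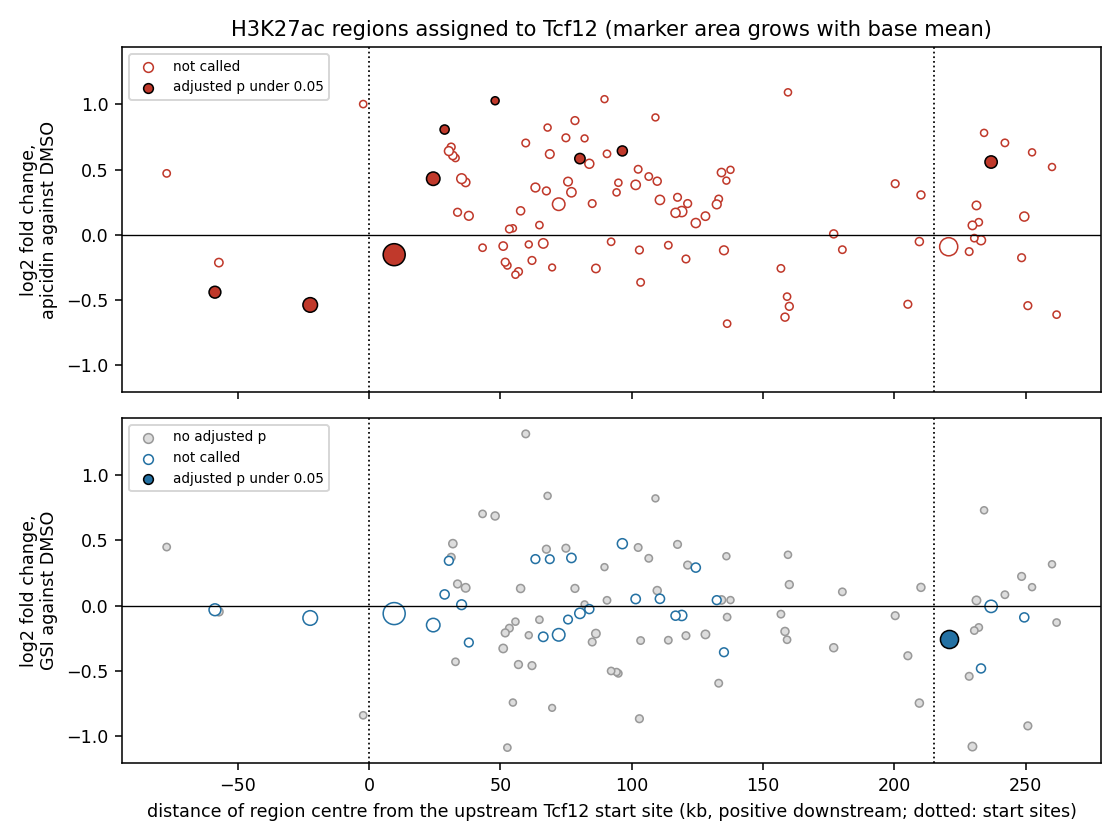
Log2 fold change of the 102 Tcf12 regions with apicidin (top) and GSI (bottom) against the distance of the region's centre from the inner upstream start (kb, positive downstream); marker area grows with base mean, black-edged filled markers have an adjusted p under 0.05, grey markers no adjusted p, and dotted lines are start sites. The filled apicidin markers lie above 0 at 5 places between the starts and at 1 beyond the internal start, and below 0 over and upstream of the first start, and the 1 filled GSI marker is the internal-start domain at -0.26.

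**Figure D4:**
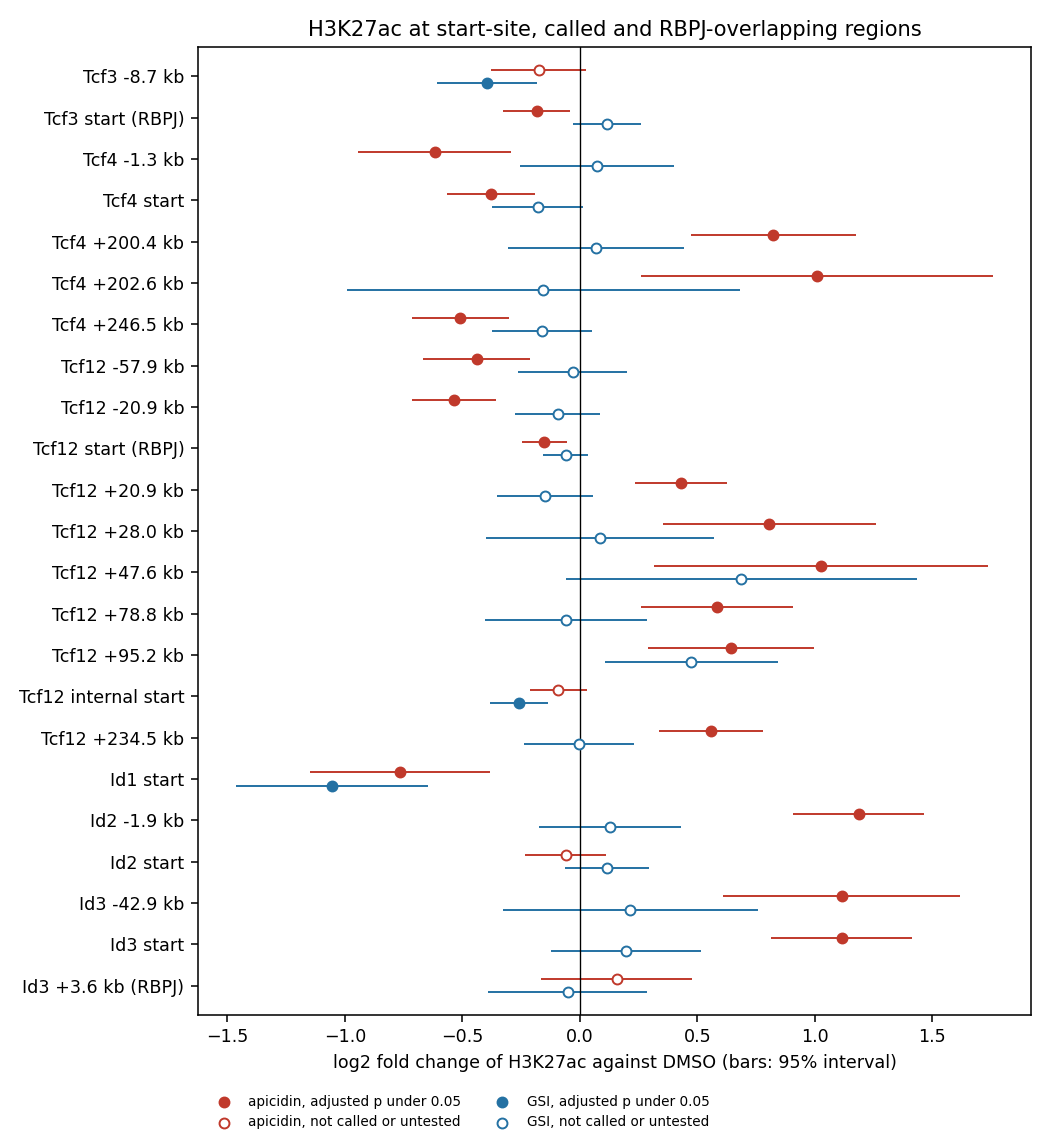
Log2 fold change with 95% interval of the start-site, called and RBPJ-overlapping regions of the 6 genes, apicidin in red and GSI in blue, filled where the adjusted p was under 0.05; labels give distance from a start site in kb (for Tcf12 the inner upstream start), negative upstream except for Tcf4, where the sign is that of the genome coordinate. The filled apicidin intervals lie on both sides of 0 at Tcf4 and Tcf12, on the right at Id2 and Id3, and on the left at Tcf3 and Id1, and all 3 filled GSI intervals lie on the left.

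The plot of intervals for all called regions sets these results beside each other. RBPJ overlap was marked at 3 of the 141 regions (2.13%), near the 2.73% of the whole table, namely the start sites of Tcf3 and Tcf12 and the downstream Id3 region. None of the 3 was called with GSI, at 0.12 ± 0.07, -0.06 ± 0.05 and -0.05 ± 0.17 in the authors' deposited table. The 3 regions that did fall with GSI carried no RBPJ mark. Over all regions tested with GSI, 5.67% overlapped an RBPJ site and 7.17% fell. With 3 regions on each side, the lack of overlap is no result about RBPJ, and a link was not tested.

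Genes around the E protein and Id axis were described by the region of highest base mean per gene. That region did not always cover the start site. It lay 95624 bases away for Lmo1, 46556 for Hey1, 51392 for Smad7, 32737 for Egr2 and 10881 for Egr3. Of 63 listed genes 53 had a region. With apicidin 14 rose and 18 fell, beside 12 percent higher and 33.5 percent lower over all 12081 genes, and with GSI 4 rose and 17 fell of 51 tested, beside 7.74 percent higher and 6.8 percent lower over 10536 genes. The list's median log2 fold change was -0.12 with apicidin and -0.07 with GSI in the authors' deposited table, against -0.18 and 0.0071 over all genes. Taking the mean over all regions of each gene instead moved the list's apicidin median to -0.0058. After centring the list counted 18 higher and 15 lower with apicidin, and 17 and 12 with the trend over base mean subtracted. Which listed genes kept the call is not given here. Among the 21 partners and regulators with a region, 3 rose and 7 fell with apicidin and 4 fell with GSI, for which 2 of the 21 were untested. One of the 4, Hes1 (-0.67 ± 0.15 with GSI, DESeq2 adjusted p 0.000223 in the authors' deposited table), is also counted among the targets below. Those that rose were Ldb1 (0.29 ± 0.06, adjusted p 8.25e-06 in the authors' deposited table), an adaptor in complexes of E proteins with LIM-only proteins, and Lmo1 (1.56 ± 0.24, 5.32e-09), a LIM-only protein of that complex. The third, Egr3, a transcription factor induced by T cell receptor signals, rose by 1.37 ± 0.38 (adjusted p 0.00204) in the authors' deposited table, at a weak region of base mean 44.1. Its relative Egr2 fell by 0.39 ± 0.09 (adjusted p 6.74e-05) in the authors' deposited table, at a region of base mean 1030. The other partners that fell with apicidin were Hey1, Cbfa2t2, Ssbp2, Smad4, Smad5 and Bmpr2, by 0.30 to 0.71 in the authors' deposited table, before any centring. GSI lowered Cbfa2t3, a corepressor that E proteins recruit, by 0.59 ± 0.08 (adjusted p 2.74e-11), and Smad7, an inhibitor of transforming growth factor signals, by 0.49 ± 0.15 (0.0132) in the authors' deposited table. The Notch target Hey1 fell with both, by 0.71 ± 0.07 with apicidin and by 0.88 ± 0.07 with GSI in the authors' deposited table.

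Known E protein or Id targets in thymocytes numbered 33 with a region, of which 11 rose and 11 fell with apicidin, and 4 rose and 14 fell with GSI. Ptcra, the gene of the pre-T alpha chain and a classical E protein target, fell by 0.49 ± 0.06 with apicidin and by 1.01 ± 0.06 with GSI in the authors' deposited table. GSI also lowered the recombinase gene Rag1 by 1.12 ± 0.11, the interleukin-2 receptor chain gene Il2ra by 0.96 ± 0.06, Notch1 by 0.77 ± 0.05 and Notch3 by 0.93 ± 0.07 in the authors' deposited table. All 4 of these genes fell with apicidin too, by 0.31 ± 0.10 for Rag1, 0.33 ± 0.06 for Il2ra, 0.30 ± 0.05 for Notch1 and 0.36 ± 0.07 for Notch3 in the authors' deposited table. Whether each of these calls held after centring or trend subtraction is not given here. Several targets on this list are also Notch targets, and the part of each was not tested. The GSI increases were Gata3 (0.35 ± 0.06), Ikzf1 (0.29 ± 0.05), Cd69 (0.60 ± 0.14) and Tox (0.23 ± 0.06) in the authors' deposited table. Of these, Gata3 (0.33 ± 0.06), Ikzf1 (0.36 ± 0.05) and Cd69 (0.99 ± 0.13) rose with apicidin as well in the authors' deposited table, while Tox had 0.05 ± 0.06 and was not called. Apicidin raised Tcf7, which encodes TCF-1 and is no E protein gene despite its symbol, by 0.70 ± 0.06 (adjusted p 1.92e-32), and Ets1 by 0.42 ± 0.05 in the authors' deposited table. It lowered Foxp1 by 0.84 ± 0.07, the chemokine receptor gene Cxcr4 by 0.40 ± 0.06 and the cell-cycle inhibitor gene Cdkn1a by 0.57 ± 0.10 in the authors' deposited table. These are single regions: of 72 Foxp1 regions 6 rose and 7 fell with apicidin, and of 54 Cxcr4 regions 6 rose and 5 fell. The Foxp1 region lay 85540 bases from the start site and the Il2ra region 13054. No region carried the symbol of 10 listed genes, among them Id4 and the E protein partners Tal1 and Tal2.

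As a check of the label, all 13 pre-T cell markers had a region, with base means at their strongest region of 222 to 12722 in the authors' deposited table, Notch1 the highest. Regions were assigned to 4 of 6 B cell, 1 of 6 myeloid, 4 of 5 plasmacytoid dendritic, 3 of 4 erythroid and 3 of 6 natural killer and innate lymphoid markers, and a region assigned to a gene shows acetylation nearby, not RNA. The highest base means of these classes were, in that order, 260, 1245, 1795, 871 and 428, against a pre-T median of 3475. Irf8 (1795), Itgam (1245), Ly6d (1193) and Klf1 (871) stood above the pre-T markers Rag1 (690) and Cd3d (222). The check therefore did not fully separate the classes. Pax5, Csf1r, Siglech and Ncr1 were among the markers with no region.

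The genes whose strongest region was most like that of each E protein or Id gene were found by the distance in the plane of both fold changes, over 2 comparisons, among regions of the same start-site state and a base mean within a factor of 2. They were Spg11, Sars and Dak for Tcf3, Trim65, Tial1 and Zbtb45 for Tcf4, Dlx1, Rhoh and Satb1 for Tcf12, and Cdk2, Fam65a and Nelfa for Id2. For these 4 genes the nearest distances were 0.0065 to 0.0234 log2 units. The nearest to Id3 was 9330133O14Rik at 0.0942, followed by Tfeb and Fbxl18, and the nearest to Id1 was Gpr56 at 0.195, followed by Phlda3 and Gm15708. Likeness over 2 values describes position only.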

How the data were processed

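Beko cells under DMSO, apicidin or GSI were profiled for H3K27ac by ChIP-seq. Per the submitters' processing notes, reads were handled with FastQC, Bowtie2, SAMtools and deepTools on mm9, without versions. How regions were called and counted was not given in the sources used here. Per the file headers, the authors deposited a DESeq2 table. The base mean is a signal, the authors' mean of normalised counts. The log2 fold changes, their SEs and the Wald score per region were deposited by the authors. Raw and adjusted p-values are likewise the authors', and Benjamini-Hochberg adjustment recomputed from the deposited p-values matched within 5.40e-07 (apicidin) and 1.03e-06 (GSI). The ratio of a difference to its SE was used as a normal score. DMSO was taken as the reference, since the headers name none. Start sites were inferred from the deposited distances; an annotation of mm9 was not used here. Unused was 1 further column, the base mean repeated for GSI.

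Computed here with pandas 2.3.3, NumPy 2.4.6 and SciPy 1.17.1 were the difference between treatments (two-sided normal p, Benjamini-Hochberg adjustment over 56342 regions), centred fold changes, fold changes less the median of 50 bins of base mean, counts and ranks. The difference ignores the shared DMSO libraries. On simulated data the difference and the centring were tested, as was a single comparison. The subtraction of the binned median, the counts and the ranks were not. The planned fit on values per library was replaced by the deposited test. The genes, the lists and the tests were chosen with earlier results of these data known. Named by rule were, per gene, the strongest region, the start-site regions, those of smallest adjusted p and largest fold change, the first called in each direction and those overlapping RBPJ; from the list, the 6 genes of smallest adjusted p per direction. Other regions and list genes described were chosen after their values were seen.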

Additional observations from a re-analysis of the deposited data

How the results depend on the processing

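No paired analysis was possible because the table holds no value per library, and for the same reason the replicate block and leaving out each replicate were not run. Apicidin decreases numbered 8 and became 4 with a log2 fold change of at least 0.5 required and 5 with the trend over base mean subtracted. The 11 increases became 7 within 50 kb of a start site, and without Tcf12 5 of 39 regions rose and 5 fell. With GSI, 1 region rose at an adjusted p under 0.1. The 3 GSI decreases became 1 at a log2 fold change of at least 0.5, and 6 without the limit on base mean, as also with centring or trend subtraction over all regions; over the regions with an authors' adjusted p both left the count within 1.5 times. The 5 higher and 3 lower differences between treatments became 14 and 6 with a correlation of 0.5 assumed, 9 and 0 after centring, and 8 and 0 with the trend subtracted, and 8 were higher among stronger regions only. With the region of smallest p per gene, 24 listed genes rose with apicidin and 10 with GSI. The removal of Tcf12, the adjustment over tested regions and both rescalings of the difference were chosen after seeing the data. Other causes were not tested. Library depth is unknown. Below a base mean of 72.1, 94 of the 141 regions had no adjusted p with GSI, and over all 141 the median SE was 0.37 for apicidin and 0.39 for GSI. Decreases at the start sites of Tcf3 and Tcf12 and, for trend subtraction, Tcf4 were the named calls against DMSO that were lost. Of the differences between treatments, all 3 lower ones lost the call with either step.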
